A study of Rattus norvegicus with 6 samples.

Results

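The acute phase and secreted plasma protein genes were 32 named genes of the liver, and they were followed through 6 Affymetrix rat arrays of liver RNA. A gene was found by its symbol, where the platform annotation gave a probe set that symbol alone, and was read from its brightest probe set by the mean over the 6 arrays. Of the 32 genes, 31 had such a probe set, and 29 passed a filter on dim probe sets, of 10449 genes that passed in all. Saa4 was found only on a probe set with several symbols and has no value here. Socs3, the feedback inhibitor of IL-6 signalling, lay between 2.17 and 2.30 (log2) on all arrays, and Lcn2, the lipocalin that binds bacterial siderophores, between 1.78 and 2.72. Both were below the filter, at the dense floor of the values, where no difference can be read.

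The rats were male Sprague Dawley. They received by gavage either tienilic acid (TA), a diuretic that lowers uric acid and was withdrawn for causing hepatitis, at 100 mg/kg in sodium bicarbonate, or the bicarbonate alone. The TA group of 6 h had 2 animals after 1 dose, each on its own array, and its vehicle group was 1 array of RNA pooled from 2 rats after 1 dose of bicarbonate. The TA group of 24 h had 2 animals after doses at 0 and 16 h, and its vehicle group was again 1 pool of 2 rats dosed at the same times. The series title asks about early gene induction and a role for danger. A vehicle pool has no replicate, so no error below holds a spread between vehicle rats. Each error starts from the spread between the 2 TA animals of each time, pooled over both times. limma, which gave the errors, then drew that spread towards the one typical of all probe sets. For Fgg, whose TA animals had an SD of 0.0065 at 6 h and 0.036 at 24 h, the error was 0.094.

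The acute phase response is the change in the plasma proteins made by hepatocytes during inflammation. Interleukin 6 acts through the receptor subunit gp130 and the transcription factor STAT3, interleukin 1 acts through NF-kB and C/EBP factors, and glucocorticoids strengthen both. Positive acute phase proteins such as alpha-2-macroglobulin, haptoglobin and fibrinogen increase in plasma, while negative ones such as albumin and transthyretin decrease. In the rat alpha-2-macroglobulin is a strongly induced member, and C-reactive protein is constitutively abundant, unlike in humans.

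Values are deposited log2 expression, so that a difference of 1 is a 2-fold change, and differences are TA minus vehicle. The 8 hepatocyte markers were all measured, and their summed level was 18.10 and 18.05 (log2) in the TA animals of 6 h and 17.99 and 18.08 in those of 24 h, against 18.09 and 18.01 in the vehicle pools. Alb, the brightest of these markers, is also 1 of the 29 genes, so the sum is not independent of them. Array medians lay between 3.27 and 3.31. The array settings name no run, and runs were set here from the clock times recorded in their fluidics section. TA animal 1 and the vehicle pool of 6 h had the earliest times, close together, and were taken as the same run. The remaining 4 arrays had later times and were taken as a later run. RNA integrity was read from the GAPDH control as its 3′ minus its 5′ value, which was 2.26 (log2) in TA animal 1 of 6 h and 1.82 to 2.04 on the other arrays. The same value of actin did not set that array apart, at 4.31 within a range of 4.17 to 4.36. These are bulk samples, in which fewer cells of a type and less RNA per cell cannot be told apart.

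None of the 29 measured genes passed limma's test at either time. The background of that test was 0% of 18625 probe sets at 6 h and 0.00537% at 24 h, and 1 of the 29 genes at 6 h and 3 at 24 h had an unadjusted p under 0.05, against 5.63% and 5.16% of all genes measured. The 5 largest differences at 24 h, in Serpina7, A2m, Lbp, Stat3 and Serpina3n, were all negative. The 5 largest at 6 h were negative in Cebpb, Orm1, A2m and Stat3, for Stat3 through animal 1 alone, and positive in Serpina6. The median difference over the 29 genes was -0.03 at 6 h, where the median of all genes was -0.03, and -0.06 at 24 h, where it was -0.01.

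The promoters of 6 members are shown here because 5 of them, Serpina3n, Fgb, Fgg, Itih2 and Itih4, belong to genes lower in both TA animals at both times, and Serpina7 had the largest difference at 24 h. They were chosen after these values were seen. Windows run from 250 bases before to 50 after a start site, 5′ to 3′, from RefSeq on build GRCr8. Those of Fgg and Serpina7 belong to a start inside the annotated span of the gene, that of Serpina7 far inside it, and so do windows of other members counted below. They lie at chr6:129088142-129088441 (plus strand) for Serpina3n, chr2:170700826-170701125 (minus strand) for Fgb, chr2:170652833-170653132 (plus strand) for Fgg, chr17:73285031-73285330 (plus strand) for Itih2, chr16:6086735-6087034 (plus strand) for Itih4 and chrX:107457632-107457931 (minus strand) for Serpina7. Capitals mark every match, on either strand, to 4 motifs: CTGGGAA, known from IL-6 responsive elements of acute phase genes, TTCNNNGAA, a palindrome that STAT proteins bind, TTNNGNAA, a loose core of C/EBP sites, and GTTAAT, a half-site of HNF1.
Serpina3n: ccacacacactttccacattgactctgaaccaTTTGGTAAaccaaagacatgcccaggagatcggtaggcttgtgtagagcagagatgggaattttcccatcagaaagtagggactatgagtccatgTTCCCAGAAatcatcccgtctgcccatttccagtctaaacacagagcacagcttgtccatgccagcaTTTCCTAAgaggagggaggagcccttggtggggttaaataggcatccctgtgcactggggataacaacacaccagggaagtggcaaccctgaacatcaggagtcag
Fgb: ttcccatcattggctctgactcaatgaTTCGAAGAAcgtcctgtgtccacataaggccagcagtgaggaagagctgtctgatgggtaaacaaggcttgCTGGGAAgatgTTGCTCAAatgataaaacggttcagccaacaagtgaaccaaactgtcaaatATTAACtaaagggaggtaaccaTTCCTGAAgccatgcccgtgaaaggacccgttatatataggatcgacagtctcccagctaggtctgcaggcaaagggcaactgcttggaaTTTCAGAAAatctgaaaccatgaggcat
Fgg: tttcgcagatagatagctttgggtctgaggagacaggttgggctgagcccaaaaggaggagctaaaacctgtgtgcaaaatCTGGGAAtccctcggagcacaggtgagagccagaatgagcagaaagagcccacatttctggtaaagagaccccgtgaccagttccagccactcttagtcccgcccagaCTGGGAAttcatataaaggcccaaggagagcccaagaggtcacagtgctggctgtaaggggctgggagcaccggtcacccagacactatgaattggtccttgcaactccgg
Itih2: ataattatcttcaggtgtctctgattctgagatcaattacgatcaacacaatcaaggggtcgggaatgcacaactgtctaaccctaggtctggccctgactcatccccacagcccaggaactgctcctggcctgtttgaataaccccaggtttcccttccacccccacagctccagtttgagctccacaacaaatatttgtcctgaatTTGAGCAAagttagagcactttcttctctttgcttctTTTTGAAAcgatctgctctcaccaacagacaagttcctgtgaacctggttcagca
Itih4: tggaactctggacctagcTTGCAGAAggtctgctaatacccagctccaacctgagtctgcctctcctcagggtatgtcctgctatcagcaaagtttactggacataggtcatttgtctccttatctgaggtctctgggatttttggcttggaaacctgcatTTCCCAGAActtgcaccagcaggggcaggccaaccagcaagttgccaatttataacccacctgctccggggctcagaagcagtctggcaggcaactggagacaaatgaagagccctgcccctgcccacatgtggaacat
Serpina7: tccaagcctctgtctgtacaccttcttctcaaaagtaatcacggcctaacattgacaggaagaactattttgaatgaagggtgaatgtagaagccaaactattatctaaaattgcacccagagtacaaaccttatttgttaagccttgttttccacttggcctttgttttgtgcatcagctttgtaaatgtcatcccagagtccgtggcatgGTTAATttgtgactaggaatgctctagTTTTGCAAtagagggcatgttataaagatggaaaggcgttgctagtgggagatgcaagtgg

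In Serpina3n and Itih4 the capitals TTCCCAGAA are 1 stretch that holds TTCNNNGAA and, on the other strand, CTGGGAA. It begins at base 128 of the Serpina3n window and base 162 of the Itih4 window. Fgg held CTGGGAA at bases 82 and 190, and Fgb at base 99, with TTCNNNGAA apart from it at base 28. A run of capitals near the end of the Fgb window holds overlapping TTNNGNAA matches. Of the 29 measured genes 21 had 1 window in the table, Fga had overlapping windows of several start sites and 7 had none, A2m and Lbp among them. CTGGGAA occurred in 7 of these 21 windows (33.3%) and in 11.3% of all 33469 windows of the same length. TTCNNNGAA occurred in 3 of 21 (14.3%) and 8.87% of all, TTNNGNAA in 14 of 21 (66.7%) and 41.3% of all, and GTTAAT in 4 of 21 (19%) and 7.45% of all. For 8 of the 21 genes, Ttr and Serpina7 furthest, the window belongs to a start inside the annotated span. In the 13 windows at the annotated gene start, CTGGGAA occurred in 5, TTCNNNGAA in 3, TTNNGNAA in 11 and GTTAAT in 2. The shares over all windows at an annotated gene start were not counted, so these counts have no background to be set against. A match is a run of letters, not evidence that a factor binds there.

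The signalling end of the pathway was measured at Stat3, Cebpb and Cebpd. Stat3, the transcription factor activated by IL-6, was at 8.94 and 8.99 in TA livers of 24 h (probe set 1370224_at), against 9.74 in the vehicle pool. At 6 h it was at 9.74 and 10.33 in the TA animals, against 10.33 in the pool. The 24 h animals lay together and below both pools, and at 6 h animal 1 alone was lower. The difference at 24 h was -0.78 ± 0.29 (SE, n = 2 TA animals; limma, adjusted p = 0.950), 1.71-fold below vehicle. Its other probe set had a smaller difference in the same direction, -0.28 at 24 h, and 0.02 at 6 h.

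Cebpb, a C/EBP factor of the acute phase and of gluconeogenesis, was at 9.19 and 9.87 in TA livers of 6 h, against 10.43 in the vehicle pool. At 24 h it was at 9.49 and 9.59 in TA livers, against 9.50 in the pool. The vehicle pool of 6 h was thus the highest of the 6 arrays, and the 6 h animals lay around the 24 h arrays. The difference at 6 h was -0.90 ± 0.33 (SE, n = 2; limma, adjusted p = 0.851) and -1.24 in animal 1, the animal of the pool's fluidics run. That animal was the lower of the pair at 6 h for A2m, Stat3, Serpina3n and Cebpb, and the higher for Lbp, Orm1, Serpina7 and Serpina6. Over all 29 genes animal 1 was below the pool for 17 and animal 2 for 22. Cebpd, a C/EBP factor induced in inflammation, lay between 2.80 and 2.99 on all arrays, just inside the filter at 2.82 and at the floor of the values. No difference can be read there. The counts over the 29 genes still include Cebpd, on the deposited values as higher in both TA animals at 6 h and lower in both at 24 h.

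Among protease inhibitors and scavengers, A2m and Serpina3n were lower in TA livers than in the pool of their time in all 4 animals. A2m, alpha-2-macroglobulin, which traps proteases of all classes, was at 8.01 and 6.87 in TA livers of 24 h (probe set 1367794_at), against 9.04 in the vehicle pool. At 6 h it was at 8.66 and 9.37 in TA livers, against 9.75 in the pool. All 4 TA animals were below the pool of their own time, but animal 2 of 6 h, at 9.37, was above the pool of 24 h. The difference was -1.59 ± 0.62 at 24 h, 3.02-fold below vehicle, and -0.74 ± 0.62 at 6 h (SE, n = 2 each; limma, adjusted p = 0.962 and 1). The TA animals of 24 h themselves lay more than 2-fold apart, which was so for 2.71% of all genes at that time and for no other of the 29 genes. At 6 h no member's animals were that far apart, beside 1.91% of all genes.

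Serpina3n, a serine protease inhibitor of the antichymotrypsin clade, was at 14.07 and 13.80 in TA livers of 24 h, against 14.64 in the vehicle pool. At 6 h it was at 14.20 and 14.51 in TA livers, against 14.62 in the pool. Each of the 4 TA arrays was below both pools, and the pools lay 0.02 apart. The differences were -0.70 ± 0.21 at 24 h and -0.26 ± 0.21 at 6 h (SE, n = 2 each; limma, adjusted p = 0.912 and 1).

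Orm1, the drug-binding glycoprotein orosomucoid, was lower in TA livers at 6 h and near vehicle at 24 h, neither of which passed the test. In TA livers of 6 h it was at 12.72 and 12.32, against 13.29 in the vehicle pool, and at 24 h at 13.31 and 13.43 in TA livers, against 13.34 in the pool. The 6 h animals were the 2 lowest arrays, and the other 4 lay within 13.29 to 13.43. Its difference at 6 h was -0.77 ± 0.21 (SE, n = 2; limma, adjusted p = 0.832), 1.70-fold below vehicle, with -0.57 in animal 1, which shared the pool's fluidics run, and 0.03 ± 0.21 at 24 h. Agt, angiotensinogen, and Serpina1, alpha-1-antitrypsin, had differences of -0.04 and 0.00 at 6 h and of 0.13 and 0.04 at 24 h.

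**Figure D1:**
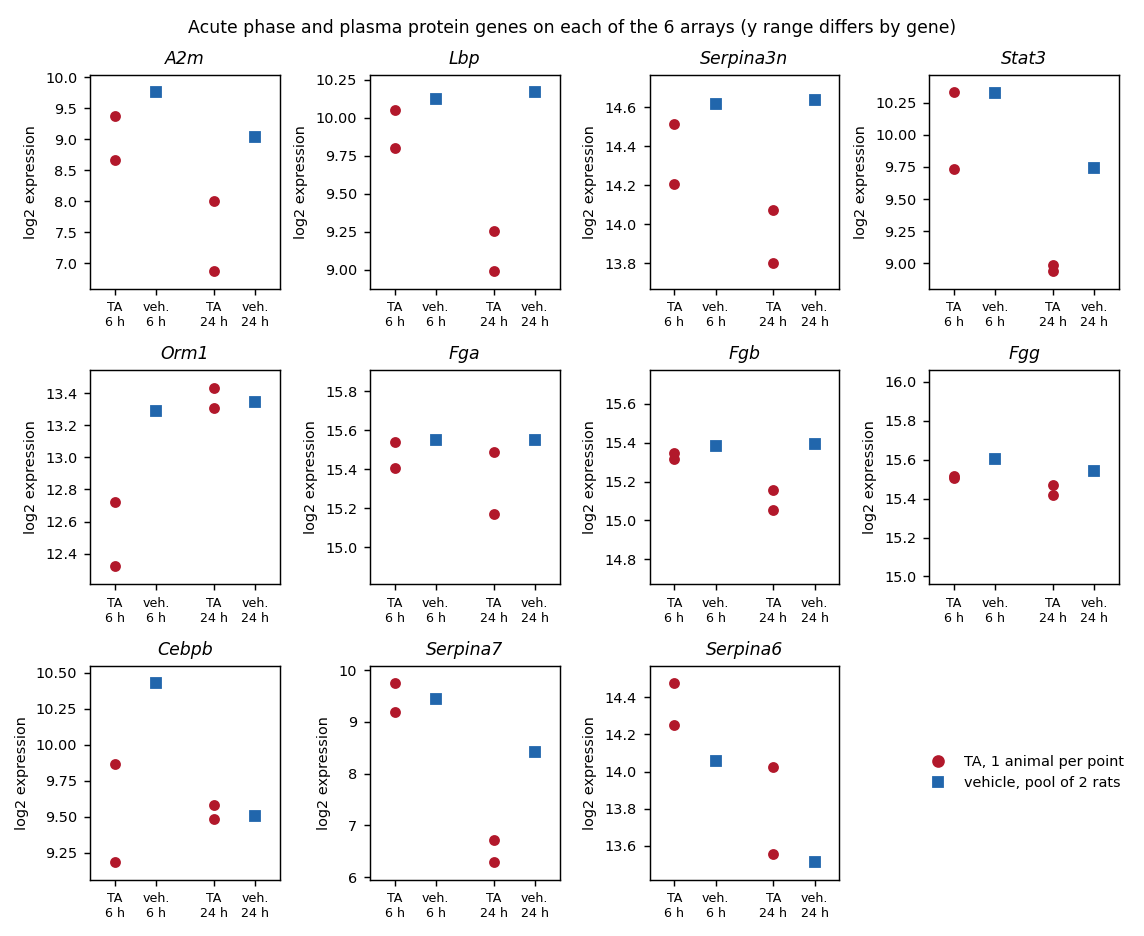
Log2 expression (y axis, its range differing between panels) of the 11 genes described array by array, with TA animals as circles and vehicle pools as squares, at 6 h and 24 h on the x axis. Lbp, Serpina3n, Fga, Fgb and Fgg have all 4 circles below both squares, and Serpina7 and Stat3 have their lowest circles at 24 h.

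Among genes of pathogen recognition, Lbp, which hands bacterial lipopolysaccharide to CD14, was at 8.99 and 9.25 in TA livers of 24 h (probe set 1387868_at), against 10.17 in the vehicle pool. At 6 h it was at 10.05 and 9.80 in TA livers, against 10.13 in the pool. The groups did not overlap at either time, and both 24 h animals stood well below every other array. The difference was -1.04 ± 0.19 at 24 h, 2.06-fold below vehicle, and -0.20 ± 0.19 at 6 h (SE, n = 2 each; limma, adjusted p = 0.904 and 1). Crp and Apcs, the pentraxins C-reactive protein and serum amyloid P, had differences of 0.02 and -0.06 at 24 h and of -0.05 and -0.03 at 6 h.

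The fibrinogen chain genes, whose products assemble into the clotting protein, differed little but on the same side. Fgb was at 15.16 and 15.05 in TA livers of 24 h, against 15.39 in the vehicle pool, and at 15.35 and 15.31 at 6 h, against 15.38. Fga was at 15.49 and 15.17 in TA livers of 24 h, against 15.55, and at 15.41 and 15.54 at 6 h, against 15.55 in that pool. Fgg was at 15.47 and 15.42 at 24 h in TA livers, against 15.54, and at 15.52 and 15.51 at 6 h, against 15.60 in the pool. For all 3 chains the 4 TA arrays lay below both pools on these probe sets, though animal 2 of 6 h stood only -0.01 from its pool for Fga. On the other Fga probe set, with -0.42 at 24 h and -0.22 at 6 h, that animal was not below the pool of 24 h. The differences at 24 h were -0.29 ± 0.10 for Fgb, -0.22 ± 0.18 for Fga and -0.10 ± 0.09 for Fgg (SE, n = 2; limma, adjusted p = 0.950, 1 and 1), and those at 6 h between -0.09 and -0.05.

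Together with Lbp and Serpina3n, these made 5 of the 29 genes with all 4 TA arrays below both pools, beside 5.44% of all genes, and 0 with all 4 above, beside 2.95%. With quantile normalization 3 remained, Lbp, Serpina3n and Fgb, beside 3.39% of all genes. Centring the arrays on their medians gave the same 5, beside 4.89%.

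**Figure D2:**
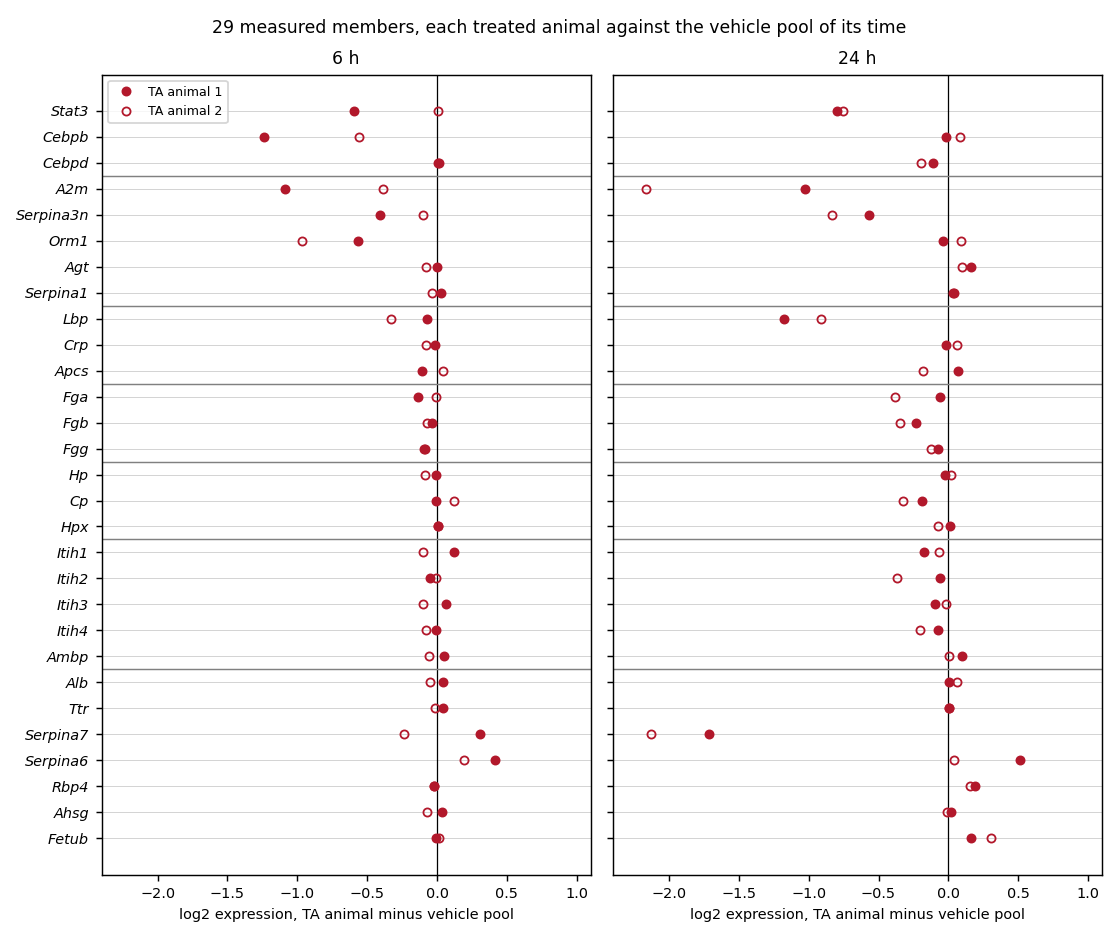
Log2 expression of each TA animal minus the vehicle pool of its time (x axis) for the 29 measured genes (rows), at 6 h and 24 h, with animal 1 as filled and animal 2 as open circles and grey lines between groups of function. Most genes lie near 0 at both times, while A2m, Serpina7 and Lbp lie near or beyond -1 at 24 h in both animals.

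Genes that bind haem and metals were close to vehicle. Hp, haptoglobin, which binds free haemoglobin, was at 15.85 and 15.90 in TA livers of 24 h, against 15.88, and at 15.92 and 15.84 at 6 h, against 15.93 in the pool. Hpx, hemopexin, had differences of -0.03 at 24 h and 0.01 at 6 h. Cp, the copper-carrying ferroxidase ceruloplasmin, was at 15.20 and 15.06 in TA livers of 24 h, against 15.38, a difference of -0.25 ± 0.12 (SE, n = 2; limma, adjusted p = 1). Its other probe sets had -0.36 and -0.28 there, and all 3 had positive values at 6 h, from 0.02 to 0.15.

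The heavy chains of the inter-alpha-trypsin inhibitor family, some of which bind hyaluronan, were lower in both TA animals of 24 h for all 4 genes, beside 34.5% of all genes. Itih2 was at 14.03 and 13.72 in those livers, against 14.09 in the vehicle pool, a difference of -0.22 ± 0.17 (SE, n = 2; limma, adjusted p = 1). Itih4 had -0.14, Itih1 -0.12 and Itih3 -0.06 at 24 h, and all lay between -0.05 and 0.01 at 6 h. Ambp, which encodes the light chain bikunin, had 0.05 at 24 h and 0.00 at 6 h. At 24 h the family thus differed from vehicle by no more than its standard errors, except in Itih4 and Itih2, where the difference was slightly larger.

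Among carriers and negative acute phase proteins, Serpina7 stood apart. It encodes thyroxine-binding globulin, a non-inhibitory serpin that carries thyroid hormone in plasma. In TA livers of 24 h it was at 6.71 and 6.30 (probe set 1371143_at), against 8.43 in the vehicle pool, and at 6 h at 9.74 and 9.20 in TA livers, against 9.44. The 24 h animals were lowest by a wide margin, while the 6 h animals lay on either side of their pool. The difference was -1.92 ± 0.33 at 24 h, 3.78-fold below vehicle, and 0.03 ± 0.33 at 6 h (SE, n = 2 each; limma, adjusted p = 0.904 and 1). Its difference between the effects of the times was -1.95 ± 0.46 (limma, adjusted p = 1).

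Serpina6, corticosteroid-binding globulin, a related hormone carrier, was on the other side of vehicle. It was at 14.47 and 14.25 in TA livers of 6 h, against 14.06 in the vehicle pool, and at 14.02 and 13.56 at 24 h, against 13.51. It was the only one of the 29 genes higher in both TA animals at both times, beside 8.1% of all genes, and animal 2 of 24 h exceeded its pool by 0.04 alone. Under quantile normalization it was not higher in both animals at 24 h, and Agt was at both times. The differences were 0.30 ± 0.25 at 6 h and 0.28 ± 0.25 at 24 h (SE, n = 2 each; limma, adjusted p = 1 at both times).

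The other carriers lay close to vehicle. Alb, albumin, had differences of 0.00 at 6 h and 0.03 at 24 h, and Ttr, transthyretin, of 0.02 and 0.00. Rbp4, the retinol carrier, was at 15.42 and 15.39 in TA livers of 24 h, against 15.24 in the vehicle pool, a difference of 0.17, and at -0.02 at 6 h. The fetuins Ahsg and Fetub, liver glycoproteins of the cystatin superfamily, had -0.02 and 0.00 at 6 h and 0.00 and 0.23 at 24 h. Of the 7 carrier genes, 5 were higher in both TA animals at 24 h, beside 28.1% of all genes, and 1, Serpina7, was lower, beside 34.5%. Under quantile normalization Rbp4 and Fetub alone of the 7 were higher in both, beside 33.8% of all genes.

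The difference was negative for 21 of the 29 genes at 6 h, beside 61.2% of all genes, and for 17 at 24 h, beside 54.2%. With quantile normalization it was negative for 16 at 6 h and 18 at 24 h. The median over all genes was then 0.0067 and 0.0073, above 0, so most genes were positive. The exact share of negative genes was not counted there, and 61.2% and 54.2% are not the background of these counts. At 6 h 13 of the 29 were lower in both TA animals, beside 38.4% of all genes. Higher in both were 3, beside 22.9%. At 24 h 14 were lower, beside 34.5%, and 8 higher, beside 28.1%. These splits moved with the scaling. Quantile normalization gave 9 lower and 4 higher at 6 h, beside 29% and 34.5% of all genes, and 14 lower and 5 higher at 24 h, beside 26.6% and 33.8%. Centring the arrays gave 10 lower and 2 higher at 6 h, beside 40% and 22.3%, and 14 and 8 at 24 h, beside 27.7% and 30.9%. At 24 h A2m and Serpina7 were at least 2-fold lower in both animals, which was so for 0.211% of all genes, and at 6 h no member was, beside 0.23%. None was 2-fold higher in both animals, beside 0.258% of all genes at 24 h and 0.249% at 6 h. Since 1 pool serves both animals of a time, their directions are tied. Within the fluidics run that animal 1 of 6 h shared with its pool, the difference was -1.09 for A2m, -0.59 for Stat3, -0.41 for Serpina3n, -0.07 for Lbp, 0.30 for Serpina7 and 0.42 for Serpina6, and the median over the 29 genes was -0.01. Lower in both animals at both times were A2m, Lbp, Serpina3n, Fga, Fgb, Fgg, Itih2 and Itih4, 8 of 29 beside 14% of all genes. Under quantile normalization Fga and Itih2, and under centring Itih4, were not lower in both animals at 6 h.

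In the mean of both times no member passed limma's test (smallest adjusted p = 0.740), and Lbp, Serpina3n and Serpina7 had an unadjusted p under 0.05, 3 of 29, beside 6.3% of all genes. The background of the adjusted test there was 0.00537% of probe sets. The difference of the effects between the times was called for no member either, with an unadjusted p under 0.05 for Lbp and Serpina7, beside 4.61% of all genes and 0.00537% of probe sets past the adjusted threshold. Lbp had -0.84 ± 0.27, while Orm1 had 0.80 ± 0.30 and Cebpb 0.93 ± 0.46 on the other side (SE; limma, adjusted p = 1 for each).

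The brighter members differed less from vehicle than the dimmer ones, as the plot of level against difference shows. Of the 29 genes, 20 were at or above the 99th percentile of all genes by brightness, as abundant secreted proteins are in liver. The 15 at or above the members' own median level of 15.05 (log2) differed from vehicle by a median of 0.02 in size at 6 h and 0.06 at 24 h, with a maximum of 0.29. The arrays held 38 genes at or above that level, these 15 among them. The medians of the 38 were 0.04 and 0.05, against 0.13 and 0.12 for all genes. The 14 members below the level had medians of 0.12 at 6 h and 0.18 at 24 h. Array signals lose proportion near the top of their range, and its part in the small differences of the brightest genes was not tested.

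**Figure D3:**
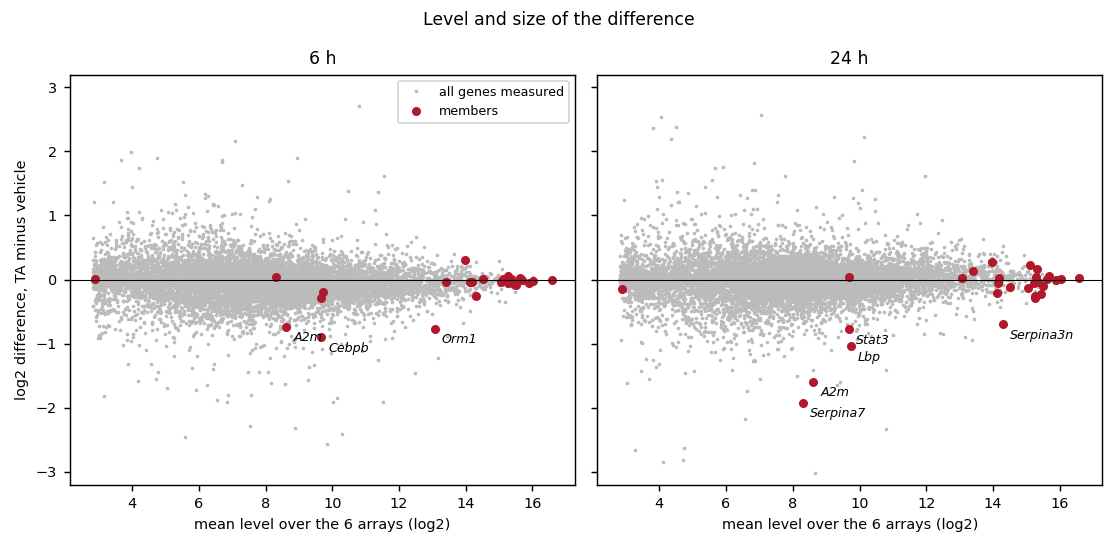
Log2 difference of TA from vehicle (y axis) against the mean log2 level over the 6 arrays (x axis) at 6 h and 24 h, with all 10449 genes in grey and the 29 members in red. The brightest members lie close to 0, and the labelled members differ by more than 0.5, while 4 genes at 6 h and 3 at 24 h lie outside the plotted range.

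Levels were also set against each other between the times. TA livers of 24 h, set against TA livers of 6 h, were lower without overlap for 18 of the 29 genes, beside 23.2% of all genes, and higher for Orm1 and Rbp4, beside 24%. None passed limma's test (smallest adjusted p = 0.157, for Serpina7), where 0% of probe sets did, and 8 of 29 had an unadjusted p under 0.05, beside 17% of all genes. Serpina7 had a difference of -2.96 ± 0.27, A2m of -1.58 ± 0.50, Stat3 of -1.07 ± 0.24 and Lbp of -0.80 ± 0.15 (SE, n = 2 animals each; limma, adjusted p = 0.157, 0.310, 0.223 and 0.207). The vehicle pool of 24 h was below that of 6 h for 21 of the 29 genes, beside 59.3% of all genes, with no replicate and no test. That pool difference was -1.01 for Serpina7, -0.72 for A2m and -0.59 for Stat3, but 0.04 for Lbp. Cebpb had -0.92 between the pools and 0.01 between the TA groups. For 13 genes both the TA animals and the pool were lower at 24 h, beside 19% of all genes. The pool of 6 h was in the earlier fluidics run after 1 dose, and that of 24 h in the later run after 2. Time, doses and run thus cannot be told apart between the pools. Of the TA animals, only animal 1 of 6 h was in the earlier run.

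**Figure D4:**
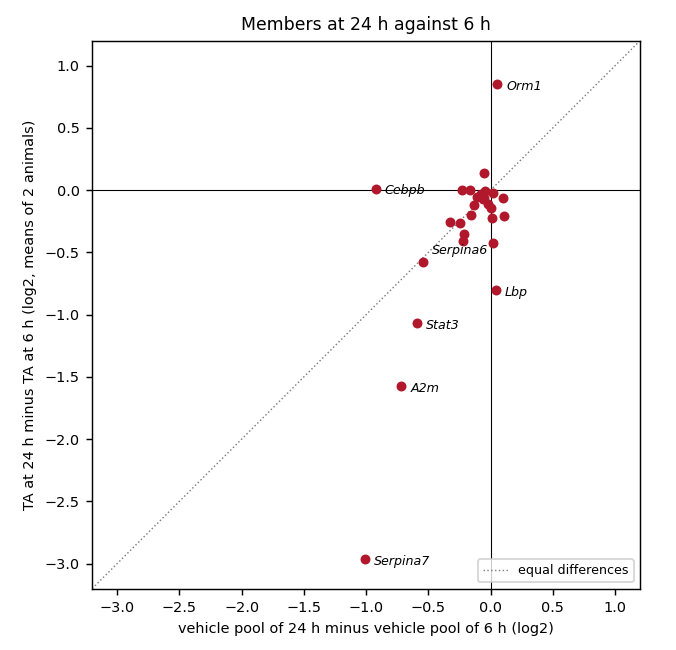
TA at 24 h minus TA at 6 h (y axis, log2, means of 2 animals) against the vehicle pool of 24 h minus that of 6 h (x axis, log2) for the 29 members, with a dotted line of equal differences. Serpina7, A2m, Stat3 and Lbp lie below the line, Orm1 and Cebpb above it.

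The wider pathway was read from other genes. Of 28 genes of IL-6, JAK/STAT and NF-kB signalling 21 were measured, and Il6 and Tnf were not among them. None passed limma's test at either time. Its unadjusted p was under 0.05 for 2 at 6 h and 1 at 24 h, beside 5.63% and 5.16% of all genes. The median difference of the 21 genes was 0.00 at 6 h, where 8 were lower and 7 higher in both TA animals. At 24 h it was -0.09, where 11 were lower and 1 higher. The shares of all genes were 38.4% and 22.9% at 6 h, and 34.5% and 28.1% at 24 h. Junb, an immediate early subunit of AP-1, was at 5.45 and 6.77 in TA livers of 6 h, against 7.49, and at 4.95 and 4.97 at 24 h, against 5.10 in the pool. Nfkb1, an NF-kB subunit, was at 7.68 and 7.52 in TA livers of 24 h, against 7.90, and at 7.83 and 8.27 at 6 h, against 8.38. Both genes were below the pool of their time in every TA animal. Others lay on the other side at 6 h: Irf1, an interferon-induced factor, was at 7.98 and 7.86 in TA livers, against 7.21, and Il1b, which encodes interleukin 1 beta, at 6.01 and 5.64, against 5.196. These 2 were chosen after their values were seen.

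Of 14 liver transcription factors of plasma protein genes 12 were measured, with a median of -0.17 at 6 h and 0.18 at 24 h. None passed limma's test. Its unadjusted p was under 0.05 for 1 at 6 h and 3 at 24 h, beside 5.63% and 5.16% of all genes. Dbp, a clock-controlled factor that binds the albumin promoter, was at 7.80 and 6.85 in TA livers of 6 h, against 8.51, and at 4.91 and 3.56 at 24 h, against 4.09. Foxa2, a pioneer factor of liver genes, was at 9.41 and 10.69 in TA livers of 6 h, against 10.77, and at 9.20 and 9.001 at 24 h, against 9.13. Both differed more between the times than between TA and vehicle at 24 h. Onecut1, a liver-enriched factor with a cut domain that was chosen after its values were seen, had opposite signs at the times. It was at 8.597 and 9.81 in TA livers of 6 h, against 11.78, and at 10.31 and 10.19 at 24 h, against 8.40. The differences were -2.57 ± 0.57 at 6 h and 1.85 ± 0.57 at 24 h (SE, n = 2 each; limma, adjusted p = 0.769 and 0.923).

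Of 40 names of other secreted liver proteins 30 were measured, with medians of -0.02 at 6 h and -0.03 at 24 h. None passed limma's test. Its unadjusted p was under 0.05 for 3 at each time, beside 5.63% of all genes at 6 h and 5.16% at 24 h. Igfbp4, a binding protein of insulin-like growth factors, was at 7.82 and 7.61 in TA livers of 24 h, against 8.33, and at 8.10 and 8.11 at 6 h, against 8.72. All 4 TA arrays were below both pools, with a mean difference of -0.61 ± 0.09 (SE; limma, adjusted p = 0.740). Mgp, matrix Gla protein, was at 9.42 and 8.999 in TA livers of 24 h, against 10.24, and at 10.37 and 9.53 at 6 h, on either side of its pool at 9.73.

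Markers of other liver cells were read beside these values. Of 10 neutrophil markers only S100a8 and S100a9 were measured, and their summed level was 4.87 and 5.33 (log2) in TA livers of 24 h, against 5.82, and 4.95 and 5.56 at 6 h, against 4.85. S100a8 lay between 3.76 and 3.90 on all arrays, so the sum followed S100a9 alone. S100a9 was at 3.93 and 4.70 in TA livers of 24 h, against 5.37, and at 4.08 and 5.03 at 6 h, against 3.93. Of 10 macrophage markers 7 were measured, with summed levels of 12.93 and 13.16 in TA livers of 24 h, against 13.09, and 13.42 and 13.14 at 6 h, against 13.12. Stellate cell and fibroblast markers, 6 of 8 measured, had 12.32 and 12.79 at 24 h in TA livers, against 12.96, and 13.80 and 13.28 at 6 h, against 13.37 in the pool. Endothelial markers, 6 of 8, had 12.57 and 12.96 in TA livers of 24 h, against 12.90, and 12.81 and 12.87 at 6 h, against 13.05. The lymphocyte list had 3 of 8 measured, the cholangiocyte list 3 of 6, the adipocyte list 1 of 4 and the pancreas list 2 of 5. The part of these cells in the differences of the acute phase genes was not tested.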

How the data were processed

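Liver RNA of 8 rats was measured on 6 arrays. The deposited values are log2 expression of 31099 probe sets. The submitters' processing notes name R 2.0.1, affy 1.5.8, RMA and GCRMA, and which of these produced the values is not given in the sources used. Array settings, deposited as other values, gave only the chip type and the fluidics times. Precision is limited by the number of arrays.

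The 57 control probe sets were left out. Of the others, 20826 have 1 symbol, 436 several and 9780 none here. 20758 of the single symbols were found in the reference table by gene identifier, and 0 differed. The test ran on the 18625 probe sets whose mean exceeded 2.82, the 40th percentile.

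Group means were compared by lmFit and eBayes of limma 3.58.1, under R 4.3.3, with 2 residual and 1.60 prior degrees of freedom and Benjamini-Hochberg adjustment over all probe sets, two-sided, called under 0.05. The fit was tested on simulated arrays: at 6 h, 28 of 50 probe sets changed by 2 (log2) were called, 0 of 50 changed by 1, and 7 of 18425 unchanged ones.

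The members, lists and tests were chosen with earlier results of these data known. Genes are described array by array if among the 5 largest differences at a time or in the mean of both, beyond both pools in all 4 TA animals, called, or 2-fold apart between TA animals. In each list the 2 genes with the largest mean difference are named. Alternatives covered the filter, variance prior, scaling, control pool, model, replicate block, fluidics run, probe set summary and leaving out animals.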

Additional observations from a re-analysis of the deposited data

How the results depend on the processing

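None of the 29 measured genes passed limma's test in any comparison under the alternatives for which a test of it was run, with a smallest adjusted p of 0.114 (Serpina7, TA at 24 h against TA at 6 h). With only 2 residual degrees of freedom, simulated 2-fold changes were not called. Of 50 simulated probe sets changed by 2 (log2) 28 were called, and of 50 changed by 3, 35. The absence of calls thus says little about small differences, and larger ones can also be missed. Over all probe sets, the count called was 0 at 6 h and 1 at 24 h, in the mean of both times and in the difference between the times. It became 1 at 6 h against the vehicle pool of the other time. At 24 h and in the mean it became 2 with an intensity trend, and 0 with both pools as 1 control group and with the additive model. At 24 h it was also 0 against the pool of the other time. With the replicate block, and with the fluidics run as a block, it was 0 in those 3 comparisons. Leaving out 1 TA animal gave 0 to 2 at 24 h and 0 to 0 in the mean and the difference. The 24 h count was 0 without either TA animal of 6 h and 2 without animal 1 of 24 h. The labels state no pairing by replicate number, and the animals of the 2 times were different rats. Animal 2 minus animal 1 correlated at -0.079 between the times over probe sets, which cannot settle whether the numbers share any handling. The replicate block changed no call of a member. The mean of all probe sets of a gene was tried for the members' medians only, and some control and model settings give no test of the mean of both times, of the difference between the times or of TA between the times.

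The members' median at 6 h was 0.068 against the vehicle pool of 24 h. At 24 h it was -0.14 with both pools as 1 control group and -0.16 against the pool of 6 h. Stat3 at 6 h turned to 0.29 against the pool of 24 h and to 0.00 with both pools as 1 group, and leaving out 1 animal gave -0.593 to 0.0033. Against the pool of the other time Cebpb at 6 h turned to 0.023 and Serpina6 at 24 h to -0.27. Without a change of sign, A2m at 6 h was -0.0192 against the pool of 24 h and -0.378 with both pools as 1 group, in place of -0.74, and Serpina6 at 24 h was 0.0033 with both pools, in place of 0.28. Cebpb at 6 h was -0.438 with both pools, in place of -0.90, and Serpina7 at 24 h was -2.93 against the pool of 6 h, in place of -1.92. None of the 11 genes described array by array was called under an alternative.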
